A study of Mus musculus with 2 samples.

Results

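The genes of glycerol handling and glyceroneogenesis were followed in the interscapular brown fat of mice, a depot that burns lipid for heat, with and without Rheb in brown adipocytes. They were taken as the rows of the deposited count table with the symbols Aqp7, Gk, Gpd1, Gpd1l, Gpd2, Pck1 and Pck2, which gave 7 genes of 54532. Both groups were C57BL/6J mice aged 1 month and carried floxed Rheb alleles (rheb FL/FL). The control group was littermates without the deletion, and the knockout group (rheb BAD KO) also carried Ucp1-cre, a recombinase driven by the Ucp1 promoter, which acts in brown adipocytes and leaves Rheb intact in cells that do not express Ucp1. Each group was 1 library from the pooled tissue of 3 mice, so no difference below has a replicate check and no p-value was computed.

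Triglyceride needs glycerol 3-phosphate as its backbone, and a fat cell can make it along 3 routes: from glucose, by phosphorylation of glycerol, or by glyceroneogenesis. In glyceroneogenesis, phosphoenolpyruvate carboxykinase turns oxaloacetate into phosphoenolpyruvate, which runs backwards through the lower steps of glycolysis to dihydroxyacetone phosphate and from there to glycerol 3-phosphate. Lipolysis releases glycerol, which leaves the cell through a channel or is phosphorylated again by glycerol kinase. Brown fat is known for more glycerol kinase than white fat and for an active glycerophosphate shuttle, which carries electrons from cytosolic NADH into the respiratory chain.

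The control library held 21855229 counts and the knockout library 23699316. For Rheb, the deleted gene, 1037 control counts stood against 568 knockout counts, and the scaled ratio was 0.553 (95% counting interval 0.499 to 0.613). Ucp1 had 50564 and 65375 counts. Both libraries are labelled male, but Xist, the RNA of the inactive X chromosome, was at 7452 counts in the control library but at 4 in the other, and the Y-linked Ddx3y at 0 and 1484. Eif2s3y, Kdm5d and Uty, also Y-linked, were at 0, 0 and 1 counts in the control library and at 2653, 259 and 431 in the other. Genotype and a difference in sex between the pools therefore cannot be told apart in any difference, on autosomes as well. All 8 brown adipocyte markers were detected, with summed levels of 4793 and 5229 CPM (counts per 1000000 of the scaled library size) in control and knockout tissue. Most of that sum was Ucp1 and Cidea, and single markers went either way, with Dio2 4.06-fold and Ppargc1a 2.38-fold higher and Adrb3 3.75-fold and Elovl3 2.02-fold lower in the knockout library. All 6 general adipocyte markers were detected as well, at 10169 and 9334 CPM summed, most of it Fabp4 at 7238 and 6550 CPM. By the 1.5-fold rule given below, Pparg was higher and Adipoq lower. That rule called 21.9% of all genes tested in each direction. The 12 skeletal muscle markers were all lower in the knockout library, with sums of 3083 and 307 CPM, and none was at 0. Summed macrophage markers stood at 90.9 and 174 CPM (6 of 8 higher by the same rule, beside 21.9% of all genes). The 6 erythroid markers summed to 2263 and 5823 CPM, and the 5 that averaged 1 CPM or more were higher. The 6 neutrophil markers summed to 3.63 and 35.1 CPM, and the 3 that averaged 1 CPM or more were higher. The other neutrophil markers had at most 10 counts in either library. Fibroblast markers summed to 332 and 455 CPM (3 of 6 higher, 1 lower) and endothelial markers to 534 and 480.3 CPM (1 of 6 higher). In whole tissue, fewer cells of a type and less RNA per cell cannot be told apart, and the part of these other cells in the differences below was not tested.

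The 7 genes did not move in 1 direction. Gk, glycerol kinase, was 2.57-fold higher in the knockout library, and Pck1, the cytosolic phosphoenolpyruvate carboxykinase, was 2.29-fold lower. With a difference of at least 1.5-fold and a counting interval that excludes 1, Gk was the 1 member called higher, Pck1 and Gpd1l were called lower, and 4 were not called. Of those 4, Aqp7, Gpd1 and Gpd2 had intervals that exclude 1 but smaller differences, and the interval of Pck2 held 1. Of the 12973 genes that averaged 1 CPM or more over both libraries, 21.9% were called higher and 21.9% lower, so 1 and 2 of 7 are near the share of all genes. A 2-fold limit kept Gk higher and Pck1 lower, beside 9.26% and 9.97% of all genes, and a limit of 0.32 on the log2 scale called Gk and Gpd1 higher and Pck1, Gpd1l, Aqp7 and Gpd2 lower, beside 31.6% and 31.9%. All 7 members passed that filter, and their median log2 ratio was -0.33 beside -0.003 over all genes tested.

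**Figure D1:**
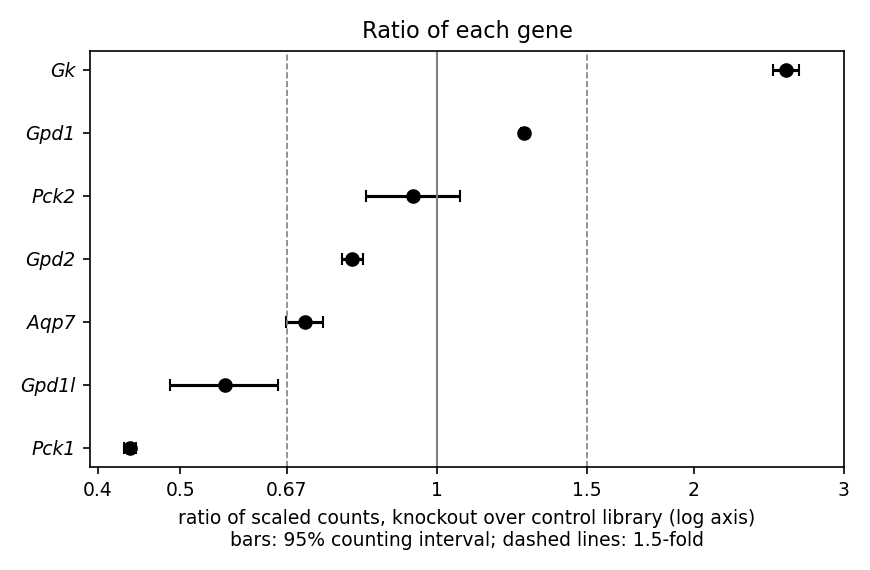
Ratio of scaled counts, knockout over control library, for each of the 7 genes on a log axis, with 95% counting intervals as bars and 1.5-fold limits as dashed lines. Gk stands at 2.57 and Pck1 at 0.437, and the interval of Pck2 spans 1.

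The upstream sequences of the 3 genes past the 1.5-fold limit are given to show what lies before the starts that moved furthest. They are the 250 bases before the transcript start in RefSeq (build GRCm38.p6, the assembly of mm10), read 5′ to 3′ on the strand of the gene. Capitals mark TGACG (the core of a cAMP response element), CACGTG (an E-box) and CCAAT, each on either strand.
Gk (chrX:85776820-85777069, minus strand): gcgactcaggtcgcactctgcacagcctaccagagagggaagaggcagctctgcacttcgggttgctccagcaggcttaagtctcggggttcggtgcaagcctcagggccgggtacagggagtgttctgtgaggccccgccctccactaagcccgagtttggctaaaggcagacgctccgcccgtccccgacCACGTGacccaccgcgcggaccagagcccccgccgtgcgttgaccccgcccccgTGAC
Pck1 (chr2:173152823-173153072, plus strand): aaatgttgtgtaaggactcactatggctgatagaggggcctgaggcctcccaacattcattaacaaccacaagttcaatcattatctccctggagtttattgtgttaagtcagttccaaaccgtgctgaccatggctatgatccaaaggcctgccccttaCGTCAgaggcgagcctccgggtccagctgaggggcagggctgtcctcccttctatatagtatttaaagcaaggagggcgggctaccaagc
Gpd1l (chr9:114933988-114934237, minus strand): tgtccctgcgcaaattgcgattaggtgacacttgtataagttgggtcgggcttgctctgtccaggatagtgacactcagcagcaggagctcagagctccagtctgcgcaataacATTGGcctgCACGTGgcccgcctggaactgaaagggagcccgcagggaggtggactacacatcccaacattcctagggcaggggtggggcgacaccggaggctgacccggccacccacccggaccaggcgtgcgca

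The motifs were searched on both strands of 300-base windows, from 250 bases before to 50 after each start, and 6 of the 7 genes had a window. Gpd1 had none and was not searched. No 2 of the motifs share bases in these windows. TGACG was found in Pck1 on the minus strand at -90 to -86 and in Gk on the plus strand at -4 to 1, so that its last base lies outside the printed Gk sequence; 20.8% of 32851 RefSeq windows hold it. The Pck1 match lies where a cAMP response element is known from work on the rat gene. CACGTG was found in Gk at -58 and in Gpd1l at -127, and in 7.15% of all windows. CCAAT was found in Gpd1l on the minus strand at -136 and in Pck2 on the plus strand at -41, and in 37.4% of all windows. AGGTCA, the half-site of many nuclear receptors, was found in both of the overlapping windows of Aqp7 and in no window of the other members, beside 16.3% of all windows. Neither window of Gpd2 held any of the 4 motifs. These matches describe letters and do not show binding.

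Aqp7 encodes the aquaglyceroporin through which adipocytes release and take up glycerol. Its gene (ENSMUSG00000028427) lies on chromosome 4, 41033074 to 41048139, minus strand, on mm10, as do all coordinates below. Control tissue gave 3811 counts (167 CPM) and knockout tissue 2641 counts (117 CPM). The channel gene was 1.43-fold lower in the knockout library (1.36 to 1.502), short of the 1.5-fold limit. With plain total-count scaling it passed the limit, at a log2 ratio of -0.64 against -0.51 with TMM scaling.

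Gk encodes glycerol kinase, which phosphorylates glycerol to glycerol 3-phosphate and so lets a cell reuse the glycerol of lipolysis. The gene (ENSMUSG00000025059) lies on chromosome X, 85701937 to 85776819, minus strand. Control tissue gave 4148 counts (181 CPM) and knockout tissue 10541 counts (465 CPM). Gk was 2.57-fold higher in the knockout library (2.48 to 2.66), and 96.1% of the genes tested had a lower ratio. It moved from rank 563 to rank 185 by CPM among all genes tested. Since Gk is X-linked and the libraries differ in Xist, the other X-linked genes were set beside it. The 395 X-linked genes had a median log2 ratio of -0.12, beside -0.0005 for 12541 autosomal genes. By the 1.5-fold rule, 20.8% of the X-linked genes were higher and 25.1% lower. Of the autosomal genes, 21.8% were higher and 21.8% lower. The log2 ratio of Gk was 1.36, and 13 of the 395 X-linked genes, Gk included, were at or above it. Gk2 and Gykl1, the glycerol kinase-like relatives of Gk, had 0 counts in both libraries, and Gk5, a more distant kinase of the family, had 75 and 42.

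Gpd1 encodes the cytosolic glycerol 3-phosphate dehydrogenase, which makes glycerol 3-phosphate from dihydroxyacetone phosphate. The gene (ENSMUSG00000023019) lies on chromosome 15, 99717515 to 99725005, plus strand. Control tissue gave 118639 counts (5187 CPM) and knockout tissue 148560 counts (6560 CPM), ranks 18 and 13 by CPM among all genes tested. Its ratio was 1.26 (1.26 to 1.27), a difference below the 1.5-fold limit. Subtracting the median of genes of like GC content, an alternative chosen after seeing the data, took its log2 ratio from 0.34 to 0.12.

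Gpd2 encodes the mitochondrial glycerol 3-phosphate dehydrogenase, which passes electrons from glycerol 3-phosphate into the respiratory chain and completes the glycerophosphate shuttle with Gpd1. The gene (ENSMUSG00000026827) lies on chromosome 2, 57237635 to 57370719, plus strand. Control tissue gave 11359 counts (497 CPM) and knockout tissue 8954 counts (395 CPM). Gpd2 was 1.26-fold lower in the knockout library (1.22 to 1.29), within the 1.5-fold limit and on the other side of 1 from Gpd1.

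Gpd1l encodes a cytosolic relative of Gpd1, known best from its link to the cardiac sodium channel. The gene (ENSMUSG00000050627) lies on chromosome 9, 114899341 to 114933987, minus strand. Control tissue gave 523 counts (22.9 CPM) and knockout tissue 292 counts (12.9 CPM). Gpd1l was 1.77-fold lower in the knockout library (1.53 to 2.05), and 14.6% of the genes tested had a lower ratio. Its interval is the wider one because fewer reads lie behind it.

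Pck1 encodes the cytosolic phosphoenolpyruvate carboxykinase, the enzyme that starts glyceroneogenesis in fat and gluconeogenesis in liver and kidney. The gene (ENSMUSG00000027513) lies on chromosome 2, 173153048 to 173159273, plus strand. Control tissue gave 45678 counts (1997 CPM) and knockout tissue 19758 counts (872 CPM). Pck1 was 2.29-fold lower in the knockout library (2.25 to 2.33), and 7.03% of the genes tested had a lower ratio. Its rank by CPM went from 37 to 83. The 7 liver markers summed to 1.53 and 0.132 CPM, most of it Apoa2 with 29 and 0 counts, while Apoa1, Ttr, Fgb and Apoh were at 0 in both libraries. Kidney markers were not examined.

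Pck2 encodes the mitochondrial phosphoenolpyruvate carboxykinase. The gene (ENSMUSG00000040618) lies on chromosome 14, 55540266 to 55551242, plus strand. Control tissue gave 515 counts (22.5 CPM) and knockout tissue 478 counts (21.1 CPM). The ratio was 0.937, and its interval of 0.826 to 1.06 holds 1, so no difference was detectable at this depth, and a 1.5-fold difference lies outside the interval.

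**Figure D2:**
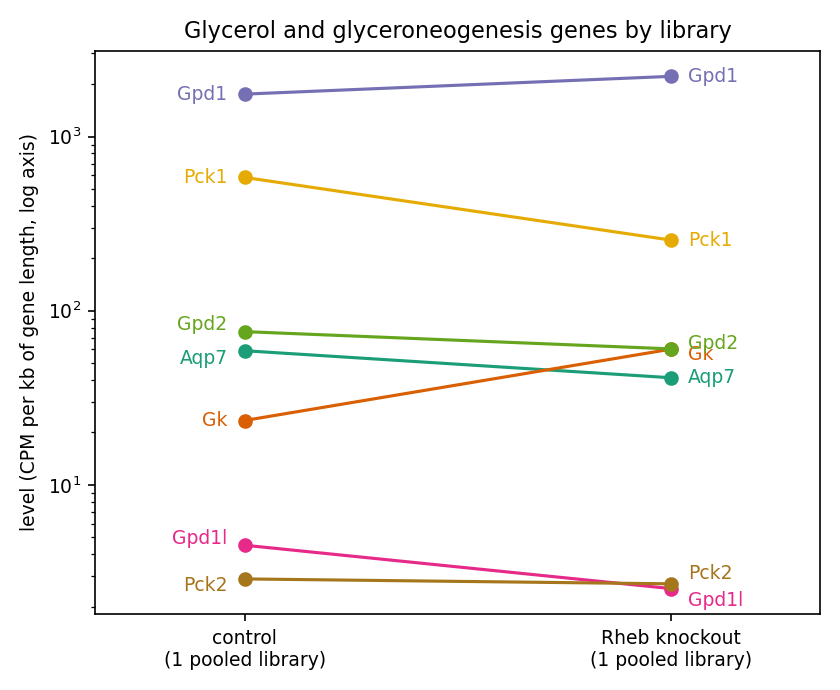
Level of each gene in the control and the knockout library, as CPM per kilobase of gene length on a log axis, 1 point per library joined by a line. Gk climbs from 23.4 to 60.1 and meets Gpd2, while Pck1 drops from 582 to 254 and stays second.

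Per kilobase of the gene length in the table, Gpd1 was the most abundant member in both libraries, at 1752 CPM per kilobase without and 2215 with the deletion. Pck1 came second, at 582 and 254. Gpd2 (75.8), Aqp7 (58.9) and Gk (23.4) followed in the control library. In the knockout library Gpd2 (60.4) and Gk (60.1) stood at nearly the same level and Aqp7 (41.2) below them. Gpd1l and Pck2 were lowest, at 4.50 and 2.88 in control tissue and 2.54 and 2.70 in knockout tissue. With 1 library a group, the order of such close neighbours has no replicate spread to be read against. The table's length joins all exons of a gene, which is long for Gk (7743 bases, with a principal coding transcript of 4245 bases) and for Pck2 (7806 and 4625 bases). Per kilobase of the principal coding transcript of GENCODE M21, a length chosen after seeing the data, Gk at 110 CPM moved ahead in the knockout library of Gpd2 at 68.8, and the order in the control library was as before.

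Ratios between members within a library do not depend on how libraries are scaled. For each Aqp7 count there were 1.09 Gk counts in control tissue and 3.99 in knockout tissue, a shift of 3.67-fold (95% Woolf counting interval 3.45 to 3.90) from the channel towards the kinase. Against Pck1, Gk went from 0.0908 to 0.534 counts per count, a shift of 5.87-fold (5.65 to 6.11). Gk and Pck1 are the members with the highest and the lowest ratio, so this shift restates their single ratios. The 2 genes of the glycerophosphate shuttle also moved apart, from 10.4 Gpd1 counts per Gpd2 count to 16.6, a shift of 1.59-fold (1.54 to 1.63). Between the cytosolic paralogs, Gpd1 over Gpd1l went from 227 to 509 counts per count, a shift of 2.24-fold (1.94 to 2.59). Per kilobase, the cytosolic carboxykinase gene Pck1 exceeded the mitochondrial Pck2 by 202-fold in control tissue and 94.1-fold in knockout tissue. That balance was 2.15-fold lower in the knockout library (1.89 to 2.43), and Pck1 remained the dominant form in both.

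**Figure D3:**
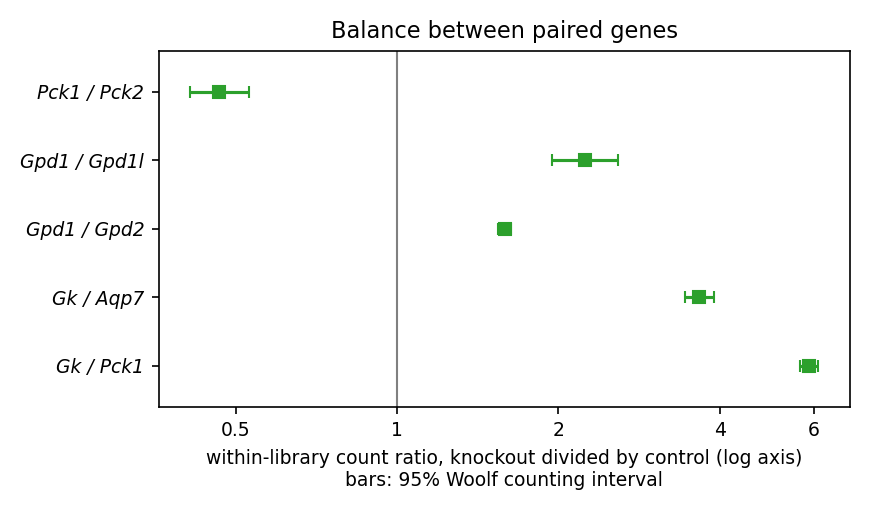
Count ratio of 2 genes within the knockout library divided by the same ratio within the control library, on a log axis, with 95% Woolf counting intervals. The ratio of Gk to Pck1 shifted by 5.87-fold. These 2 members have the highest and the lowest single ratio, so no other pair could shift more. The ratio of Pck1 to Pck2 was the only one of those drawn to shift below 1.

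In all, 0.845% of the reads in the control library and 0.807% in the other fell on the 7 genes, most of them from Gpd1 and Pck1. The protein-coding genes nearest to each member by log2 level in both libraries were Kdr for Aqp7, Gm21887 for Gk, Fabp4 for Gpd1, Klf15 for Gpd1l, Ddx5 for Gpd2, Agpat2 for Pck1 and Utp11 for Pck2. With 2 libraries this likeness is only one of level and ratio, and for 2 members it was loose. Fabp4 had a ratio of 0.905 beside 1.26 for Gpd1, on the other side of 1. Agpat2 had 0.533 beside 0.437 for Pck1. Klf15 had 523 and 287 counts, beside 523 and 292 of Gpd1l. Genes on the other strand overlap the spans of Gk, Gpd1, Gpd2 and Pck2, and the library kit does not mark strand. The highest of these was Gm16537 at Gpd1, with 78 and 32 counts.

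**Figure D4:**
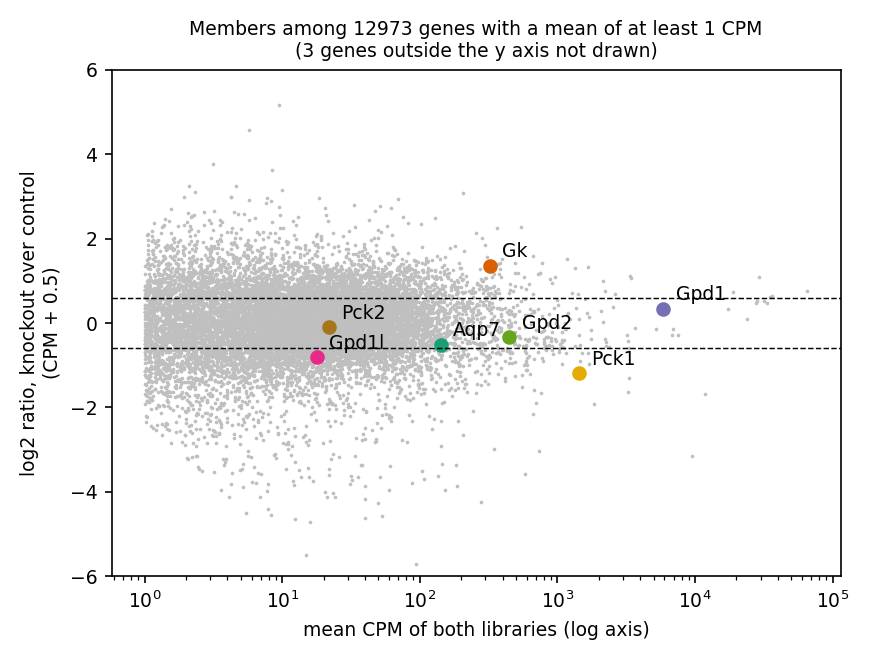
Log2 ratio of knockout over control (CPM plus 0.5) against mean CPM on a log axis for 12973 genes in grey, with the 7 members coloured and 1.5-fold limits dashed; 3 genes beyond the y axis are not drawn. Gk lies above and Pck1 and Gpd1l below the limits, and Gpd1 is among the most abundant genes.

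The genes around these reactions were counted in 6 lists of 53 genes, of which 48 passed the filter. By the 1.5-fold rule 8 were higher and 15 lower, 25 were not called, and the median log2 ratio was -0.15. At 2-fold, 6 of the 48 were higher and 6 lower, beside 9.26% and 9.97% of all genes. The counts below, at 1.5-fold with TMM scaling, are to be set against the 21.9% of all genes called in each direction. With a filter at a mean of 10 CPM, 1579 of 7745 genes were higher and 1514 lower. With total counts without the 20 highest genes, 3084 of 12968 were higher and 2599 lower. The genes that feed oxaloacetate to the carboxykinases had 4 of 8 measured members lower and none higher (median -0.58), beside 21.9% of all genes in each direction. Got2, the mitochondrial aspartate aminotransferase, had 1346 and 477 counts and was 2.79-fold lower in the knockout library (2.52 to 3.11). Mdh1, cytosolic malate dehydrogenase, was 1.99-fold lower and Pcx, pyruvate carboxylase, 1.86-fold lower. The aspartate-glutamate carrier Slc25a12 was 1.60-fold lower.

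The enzymes between phosphoenolpyruvate and the triose phosphates, which glyceroneogenesis shares with glycolysis, had 4 of 8 lower and none higher (median -0.57), again beside 21.9% each way. Other scalings gave 3 (total counts without the 20 highest genes) to 6 (total counts). Under these 2 scalings, 2599 of 12968 and 3527 of 12975 of all genes were lower. Pgam1, phosphoglycerate mutase, was 2.49-fold lower in the knockout library (2.41 to 2.57) and the enolase Eno1 1.505-fold lower, at the limit. The muscle enolase Eno3 was 3.06-fold lower. Skeletal muscle markers summed to 3083 and 307 CPM, and the part of muscle in this or the other differences of the list was not tested. The aldolase Aldoc, at 42 and 6 counts, was 6.93-fold lower (2.93 to 19.95).

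Other genes of glycerol and glycerol 3-phosphate had 3 of 7 members past the filter, and all 3 were lower (median -0.88). With a filter at a mean of 10 CPM, 1 lower gene was left, Pgp. Pgp, the phosphatase that turns glycerol 3-phosphate back into glycerol, had 1660 and 889 counts and was 1.85-fold lower in the knockout library (1.70 to 2.01). Aqp11, an intracellular aquaporin, had 76 and 19 counts and was 3.96-fold lower (2.37 to 6.94), and Gk5 was 1.77-fold lower. The other aquaglyceroporin genes were near 0, Aqp3 with 1 and 4 counts and Aqp9 with 1 and 0, so that Aqp7 was the aquaglyceroporin with appreciable counts among the 3 listed.

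The enzymes that acylate glycerol 3-phosphate differed in direction, 4 of 12 being higher and 2 lower (median 0.09). With a filter at a mean of 10 CPM, 2 were higher and 2 lower. Dgat1, which adds the last acyl chain, had 10434 and 23499 counts and was 2.27-fold higher in the knockout library (2.22 to 2.33). Dgat2, the other enzyme listed for that step, went the other way. It had 22785 and 12683 counts and was 1.78-fold lower (1.74 to 1.82). Gpat4, an acyltransferase of the first step, was 2.15-fold higher. The phosphatidate phosphatase Lpin3, at 113 and 247 counts, was 2.21-fold higher. Its relative Lpin1, at 6454 and 4706 counts, had a ratio of 0.736, and Lpin2 had 0.982. Agpat2, of the second step, had 43674 and 23029 counts and was 1.88-fold lower (1.85 to 1.91). Genes of triglyceride breakdown, which supply glycerol, had none of 6 past the limit in either direction (median 0.12), and 1 of 6 was higher with total counts without the 20 highest genes. Lpl, lipoprotein lipase, had a ratio of 1.48 (1.46 to 1.51), Lipe, hormone-sensitive lipase, 1.18, G0s2, an inhibitor of adipose triglyceride lipase, 1.16 and Abhd5, its activator, 0.839.

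Transcription regulators known to act on Pck1 and its neighbours had 4 of 11 higher and 2 lower (median 0.22), or 5 higher and 1 lower with total counts without the 20 highest genes. The coactivator Ppargc1a had 1734 and 4082 counts and was 2.38-fold higher in the knockout library (2.25 to 2.52). Pparg, the nuclear receptor that drives Pck1, Gk and Aqp7 in fat cells, had 3077 and 6208 counts and was 2.04-fold higher (1.95 to 2.13). The CREB coactivator Crtc2 was 2.21-fold higher. Cebpa, a factor that also binds the Pck1 promoter, had 10415 and 3809 counts and was 2.71-fold lower (2.61 to 2.81). Atf4, which drives Pck2 in other cells and was picked with its value in view, stood at 1.48 beside 0.937 for Pck2.

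**Figure D5:**
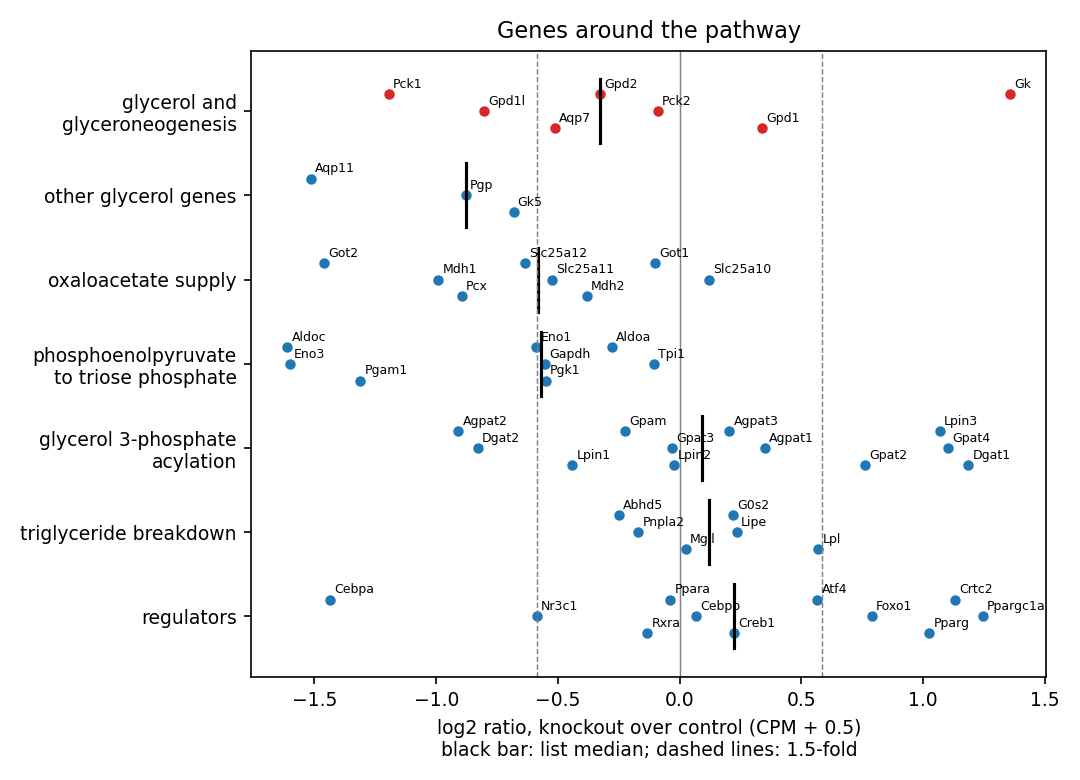
Log2 ratio of knockout over control (CPM plus 0.5) for each measured gene of the 7 members and 6 surrounding lists, 1 point per gene, with list medians as black bars and 1.5-fold limits as dashed lines. The oxaloacetate and triose phosphate lists have medians of -0.58 and -0.57, while members of the acylation and regulator lists lie beyond both limits.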

How the data were processed

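Bulk RNA sequencing gave 2 libraries, each from 3 pooled mice. The values the authors deposited are raw counts of reads per Ensembl gene, without normalization. Trimmomatic, HISAT2, featureCounts and the mm10 build were used, per the submitters' processing notes. Nothing on tool versions, the gene annotation or multi-mapping reads was given in the sources used here. Libraries came from Trizol-extracted RNA and the TruSeq v.2 kit, per the labels' protocols. Per the file headers, each gene also has a length in bases, which joins its exons. The spans of all 7 members were the same in GENCODE M21, whose gene types and principal transcripts were used.

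Counts were scaled to CPM with TMM factors from edgeR 4.0.16. Log2 ratios used CPM plus 0.5; single ratios used no pseudocount and a 95% Clopper-Pearson interval. Ratios of 2 genes within a library were compared with a Woolf interval. These intervals hold counting error alone, and variation between mice or library preparations is not in them. Reads copied by PCR are not separate molecules, so even the counting error can be understated. The call rule asked for a 1.5-fold difference in the log2 ratio, thus with CPM plus 0.5, together with an interval on 1 side of 1. A single ratio just past 1.5 can therefore go uncalled, as for the macrophage marker Lyz2 at 1.504. The ratio and its rule were tested on simulated counts that held Poisson counting error only. Without variation between mice or libraries, that test cannot show how often the rule calls a gene wrongly in real tissue. A symbol with several identifiers was read as the one with more counts.

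The members, lists and rules were chosen with earlier results of these data known. The genes named are the members, Rheb, Ucp1, genes overlapping a member and each member's nearest protein-coding gene by log2 CPM. From each surrounding list, up to 4 genes with the largest absolute log2 ratio are named. Cell type markers, Atf4, Dgat2, Lpin1, Lpin2 and genes named for a count of 5 or fewer stand outside these rules. Alternatives were other scalings (DESeq2 1.42.0 among them), filters, pseudocounts and thresholds, leaving out each member and, added after the data were seen, a GC correction over 20 bins and another gene length. The software was scipy 1.17.1, pandas 2.3.3 and numpy 2.4.6 on Python 3.11.15, with matplotlib 3.10.9 for plots and R 4.3.3. RefSeq promoter windows came from build GRCm38.p6.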

Additional observations from a re-analysis of the deposited data

How the results depend on the processing

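No paired analysis was possible because both groups consist of 1 library, and for the same reason no library could be left out. Each member kept the sign of its log2 ratio in the 8 settings that could move it (5 scalings, 2 pseudocounts and the GC correction). Gk, Pck1 and Gpd1l passed the 1.5-fold limit under each scaling and pseudocount run, and Aqp7 joined them under total counts. Total counts shifted the median log2 ratio of all genes to -0.13 and the split of all genes at 1.5-fold from 2839 higher and 2839 lower to 2258 higher and 3527 lower. The members' median log2 ratio of -0.33 became -0.46 with total counts, -0.27 without the 20 highest genes and -0.21 with the GC correction. Without Aqp7, Gpd1l or Pck1 it was -0.21, and without Gk, Gpd1 or Pck2 it was -0.42. Of the surrounding genes, 8 higher and 15 lower became 8 and 18 with total counts and 10 and 13 without the 20 highest genes. Without the 20 highest genes, 3084 of 12968 of all genes were higher and 2599 lower. A filter at a mean of 10 CPM left 41 of the surrounding genes measured, 6 higher and 11 lower. With that filter, 1579 of 7745 of all genes were higher and 1514 lower. A 2-fold limit left 1 member lower (Pck1), and 6 surrounding genes higher and 6 lower, beside 9.26% and 9.97% of all genes. A limit of 0.32 on the log2 scale gave 2 members higher and 4 lower, beside 31.6% and 31.9%. With the GC correction, Gpd1 had a log2 ratio of 0.12 in place of 0.34 and Gpd2 -0.21 in place of -0.33. Depth limits Pck2 and Gpd1l most, with 993 and 815 counts over both libraries.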
